A study of Mus musculus with 4 samples.

Results

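Iron and lipid peroxide defence genes were followed in T cells from the lymph nodes that drain a tumour. The set holds 10 genes chosen by symbol, Gpx4, Acsl4, Slc3a2, Slc7a11, Fth1, Ftl1, Tfrc, Hmox1, Nfe2l2 and Txn1, out of 32285 genes in the count tables, and all 10 had a row and at least 1 count in T cells of each library. The mice carried MC38-OVA tumours, grown from a mouse colon carcinoma line that makes ovalbumin. T cells were sorted alive and read with the SeekOne DD droplet kit, which captures the 5' end of transcripts. There were 4 groups with 1 library each. KO-DOX came from mice labelled as lacking PD-L1 (the gene Cd274) in dendritic cells and given doxorubicin, KO-CTRL from such mice under the control treatment, WT-DOX from mice of control genotype given doxorubicin, and WT-CTRL from mice of control genotype under the control treatment. All 4 groups bore the tumour. The labels give neither the number of mice behind a library, nor their age, nor the promoter that drives the deletion, nor dose and time of the drug.

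The study concerns ferroptosis of dendritic cells, a form of cell death driven by iron and by peroxides of membrane lipids, and the values here describe the T cells of the same nodes. Cells hold such peroxides down with glutathione, made from imported cystine, and with thioredoxin, and they keep free iron low by storing it in ferritin and by limiting its uptake. The transcription factor NRF2 switches on many of these genes, and iron regulatory proteins act on ferritin and transferrin receptor mRNAs. Dividing lymphocytes need iron and reducing power for DNA synthesis.

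Of the 10 genes, 3 carry an iron-responsive element, the hairpin that iron regulatory proteins bind when iron is scarce. It is shown for these 3 because the shares of ferritin and transferrin receptor mRNAs moved in opposite directions in cycling cells. Whether the hairpin had a part in those shares was not tested. In the 5' UTR the hairpin blocks translation, and in the 3' UTR it protects the mRNA. The search was for a C, 5 bases, CAGTG, any base and 5 bases on the mRNA strand, with both runs of 5 bases able to pair (G with T allowed). Such a match stood in transcripts of 369 of 21951 protein-coding genes (1.68%) of GENCODE M21 on GRCm38, the build also called mm10. Capitals mark the loop.
Fth1 5' UTR, chr19:9982733-9982759, plus strand: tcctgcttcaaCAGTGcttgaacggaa
Ftl1 5' UTR, chr7:45459780-45459806, minus strand: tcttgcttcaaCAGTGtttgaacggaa
Tfrc 3' UTR, chr16:32631220-32631246, plus strand: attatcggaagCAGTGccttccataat
Tfrc 3' UTR, chr16:32631599-32631625, plus strand: attatcgggagCAGTGtcttccataat
Tfrc 3' UTR, chr16:32631664-32631690, plus strand: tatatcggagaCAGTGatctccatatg
Tfrc 3' UTR, chr16:32631711-32631737, plus strand: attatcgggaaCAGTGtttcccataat
The ferritin elements shared 25 of 27 bases, and Tfrc held 4 matches to this pattern. Elements that depart from the pattern were not searched for. A match in the letters is a description and says nothing of binding in these cells.

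The 4 libraries held 10372 to 12959 barcodes each, of which 9470 to 11928 passed as T cells, with 32438523 to 40799582 unique molecular identifiers (UMIs, each 1 counted transcript) in them. The median T cell held 3012 to 3105.5 UMIs. The 6 T cell markers summed to 3056 to 3154 CPM (a gene's UMIs relative to all UMIs of the same cells) there, against 6.33 to 8.12 CPM for 4 B cell markers, 45.0 to 52.6 CPM for 7 myeloid markers and at most 0.588 CPM for 5 erythroid markers. T cells were chosen on the T cell, B cell and myeloid markers, so the sums of these markers follow in part from the limits. Barcodes with at least 2 UMIs of the myeloid markers were left out, 380 to 439 in a library. Of 1629 such barcodes 1559 also held at least 2 UMIs of the T cell markers, and their myeloid markers summed to 333 to 476 CPM. Of 47299 distinct barcode sequences, 1283 occurred in more than 1 library. Cd274 itself stood at 85.0 CPM in KO-DOX, 86.0 in KO-CTRL, 66.9 in WT-DOX and 67.5 in WT-CTRL T cells. Among the barcodes with myeloid markers it stood at 74.6, 77.3, 58.1 and 68.3 CPM in the same order of libraries, so it was not lower in the KO libraries there either. The deletion is labelled for dendritic cells, and no pure set of these was read, so neither set of levels checks the genotype labels.

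Gates were set on marker UMIs, and none of the 10 genes served as a marker. A cycling cell had at least 3 UMIs over 8 mitosis and replication genes, a Foxp3-positive cell had Foxp3 and no Cd8a or Cd8b1, and CD8 and CD4 cells carried their own marker and not the other. The cycling gate held 167, 159, 95 and 143 cells in KO-DOX, KO-CTRL, WT-DOX and WT-CTRL. Keeping the barcodes with B cell or myeloid markers, and asking for no T cell marker, would give 300, 327, 205 and 290. The marker limits thus removed about as many cycling barcodes as they left, and those removed need not be T cells. The Foxp3-positive gate held 119 to 172 cells a library, the CD8 gate 3809 to 4799 and the CD4 gate 1533 to 2160. Foxp3, Il2ra, Ikzf2 and Ctla4, which mark regulatory T cells, summed to 2748 to 3033 CPM in the Foxp3-positive gate against 288 to 442 CPM in the CD4 gate. Foxp3 was required in the Foxp3-positive gate and absent from the CD4 gate. The difference between these sums therefore follows in part from the gates, and sums without Foxp3 were not compared. The regulatory T cell markers summed to 568 to 1024 CPM in the cycling gate, which was not split by Foxp3. Myeloid markers summed to 29.0 to 41.5 CPM there, against 43.7 to 52.6 CPM in CD8 and 45.3 to 58.0 CPM in CD4 cells. Within CD4 cells, those with at least 2 UMIs over Tox2, Sostdc1, Il21, Pdcd1 and Cxcr5 are called follicular helper here (149 to 240 a library) and those with none are called other CD4. Within CD8 cells, those with at least 2 UMIs of the chemokine gene Ccl5 were set against those with none. Another 3842 to 4991 T cells a library entered no gate.

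Cycling cells held a larger share of Txn1, Tfrc and Gpx4 transcripts and a smaller share of ferritin, Nfe2l2 and Slc3a2 transcripts than resting cells. Hmox1 was called higher in cycling cells too, on few UMIs and with levels that overlapped those of CD4 cells. The Gpx4, Tfrc and Slc3a2 calls in cycling cells were lost with each cell thinned to 1500 UMIs. Follicular helper cells held more Hmox1, Txn1 and Slc3a2 than other CD4 cells, and Foxp3-positive cells held less Nfe2l2 than CD4 cells. UMIs were summed per library and gate, and gates were compared over the 4 libraries with edgeR's quasi-likelihood test with the library as a block, TMM scaling and Benjamini-Hochberg adjustment over all genes tested (called at adjusted p under 0.05). Since each library is another group, these p-values measure the spread of a gate difference between libraries that differ in genotype and treatment. Slc7a11 was too scarce to test, which left 9 genes. In cycling against resting cells (the mean of CD8 and CD4) 4 of 9 rose and 4 fell, where 64.9% of all 11594 genes tested were called, 33.4% higher and 31.5% lower. In follicular helper against other CD4 cells 3 rose and 4 fell (44.8% of all genes called, 22.2% higher and 22.7% lower). In CD8 against CD4 cells 2 rose and 3 fell (40.8%, 19% and 21.8%). In Foxp3-positive against CD4 cells 0 rose and 2 fell (23%, 11.3% and 11.7%), and in Ccl5-positive against Ccl5-negative CD8 cells 3 rose and 0 fell (19.8%, 11.6% and 8.23%). With the lineage held fixed, 3 rose and 4 fell in cycling against other CD8 cells (52.5%, 25.5% and 27%), and 2 rose and 3 fell in cycling against other CD4 cells (42.2%, 21.1% and 21.1%). Hmox1 is 1 of the 4 that rose in cycling cells and of the 3 that rose in cycling CD8 cells. The 3 that fell in CD8 cells and the 3 that rose in follicular helper cells also include it. It passed the filter on few UMIs, as given below for that gene. The share of Foxp3-positive calls, 2 of 9, was near that of all genes, and the other shares lay above it by an amount that was not tested on 9 genes.

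Scaling and thinning moved the centre of the gate contrasts. With library totals in place of TMM, the median of all genes moved by -0.01 log2 units in the cycling contrast, 0.05 in cycling CD8 and 0.02 in cycling CD4 cells, but by -0.15 in CD8 against CD4, 0.14 in Foxp3-positive against CD4, -0.13 in the Ccl5 contrast and 0.22 in the follicular helper contrast. The share of called genes that were higher then came to 19.9% against 46.7% for CD8 against CD4, 70.0% against 49.1% for Foxp3-positive, 28.2% against 58.4% for Ccl5-positive and 72.1% against 49.5% for follicular helper cells. With each cell thinned to 1500 UMIs, the median moved by -0.10 in the cycling contrast, -0.27 in cycling CD8 and -0.30 in cycling CD4 cells. The share of called genes that were higher was then 49.3% against 51.5% for cycling, 37.3% against 48.6% for cycling CD8 and 33.9% against 50.1% for cycling CD4 cells. Log2 folds below are TMM values unless named otherwise, and levels in CPM are on totals.

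**Figure D1:**
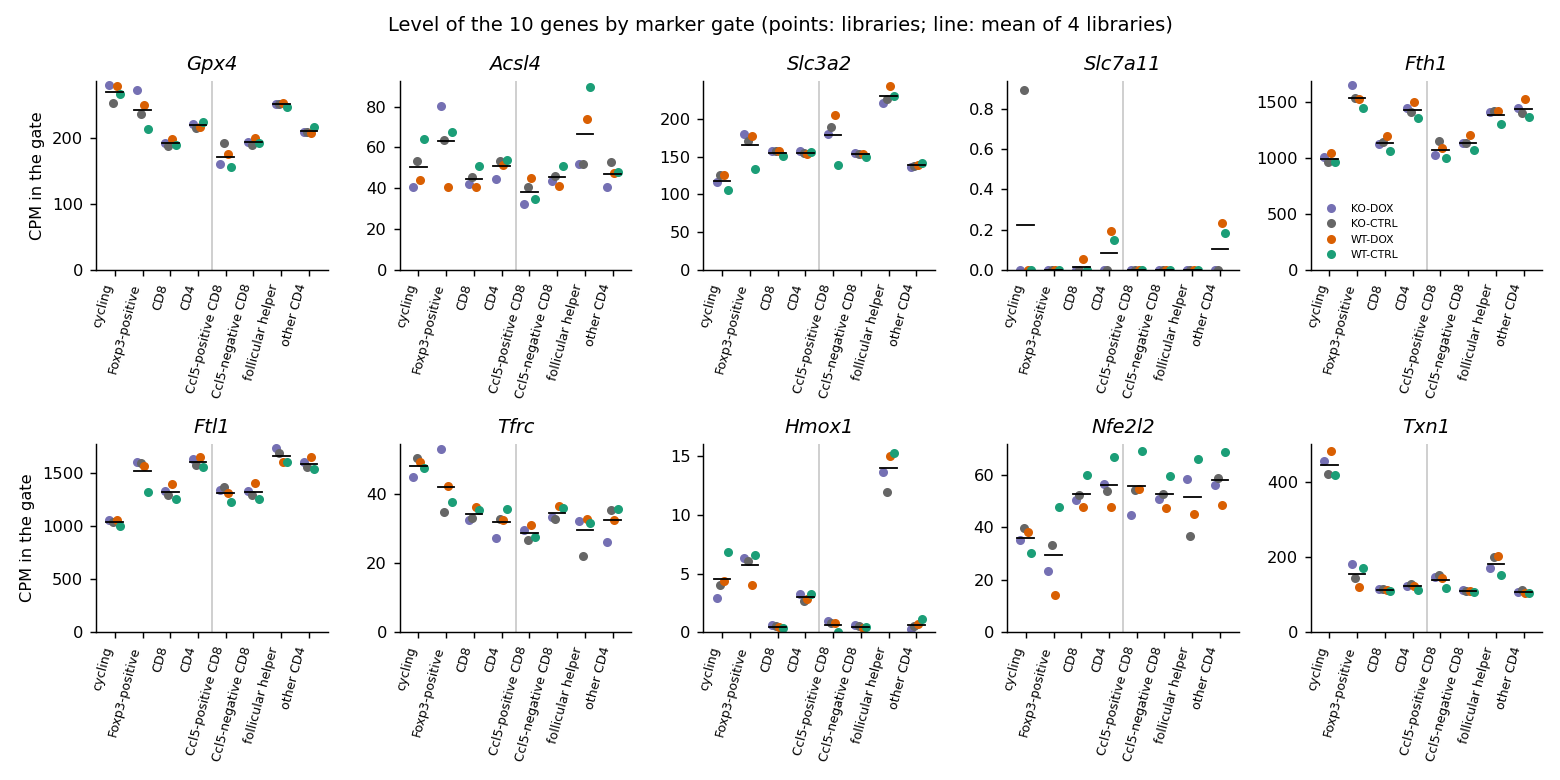
CPM (y axis, each panel from 0 on its own scale) of the 10 genes in 8 gates (x axis); points are the 4 libraries and the line is their mean. Txn1 in cycling cells (418 to 482 CPM) and Hmox1 in follicular helper cells (11.9 to 15.3 CPM) stand clear of all other gates.

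**Figure D2:**
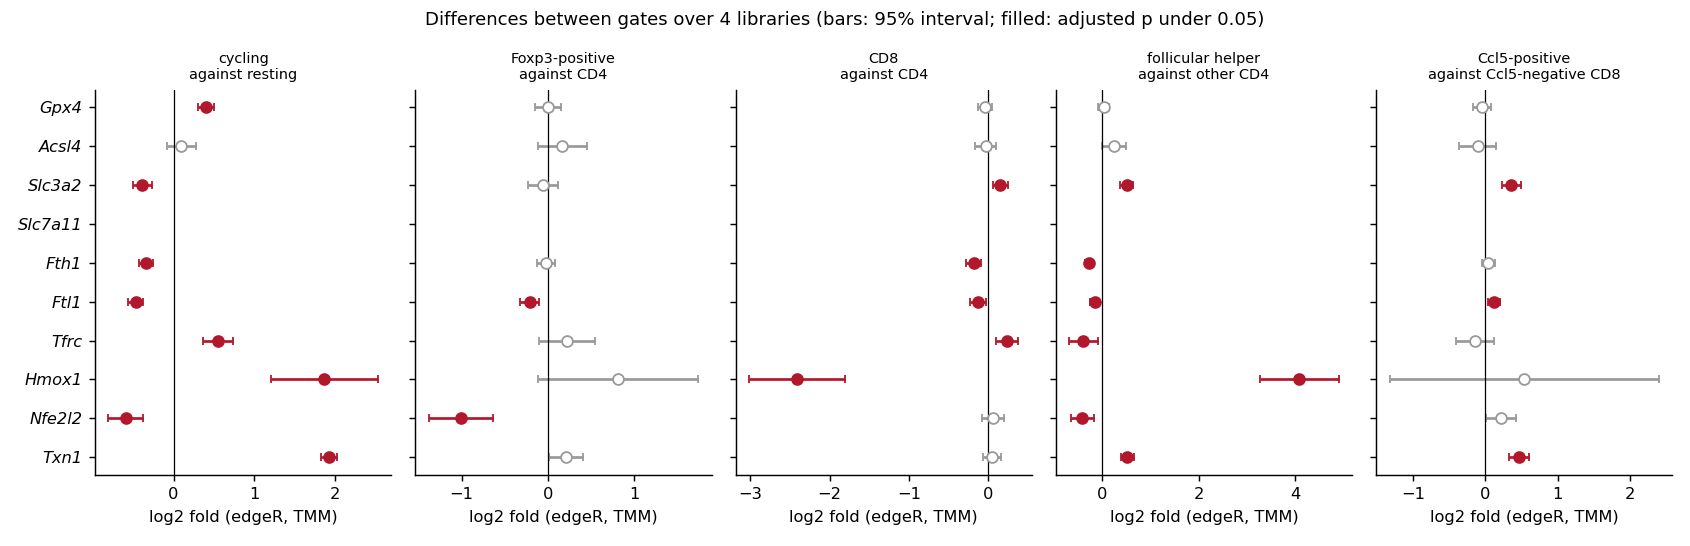
Log2 fold of each tested gene (edgeR, TMM) in 5 gate contrasts, with 95% intervals; filled points have an adjusted p under 0.05. Txn1 lies at 1.92 for cycling cells and Hmox1 at 4.08 for follicular helper cells, while Acsl4 has no filled point.

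Gpx4 (ENSMUSG00000075706, chr10:80047166-80056439, plus strand) encodes the glutathione peroxidase that reduces peroxides within membrane lipids. In KO-DOX, KO-CTRL, WT-DOX and WT-CTRL it stood at 281, 253, 279.9 and 267 CPM in cycling cells, against 192, 189, 199 and 189.8 CPM in CD8 cells and 222, 216, 216 and 225 CPM in CD4 cells. Every cycling value lay above every resting value. Gpx4 rose in cycling cells by 0.40 ± 0.048 log2 units (SE, n = 4 libraries, adjusted p = 6.0e-09), and with the lineage held fixed by 0.39 in CD8 and 0.37 in CD4 cells. Thinned to 1500 UMIs a cell, the difference was 0.08 with adjusted p = 0.65, with 0.02 in CD4 and -0.10 in CD8 cells. Thinning also moved the median of all genes, to -0.13 in cycling against resting, -0.40 in cycling CD4 and -0.39 in cycling CD8 cells. The 3 Gpx4 values lay above these medians, by amounts that were not tested. Cycling cells were deeper, with a median of 10527 to 12170 UMIs against 3483 to 3565 in CD8 and 2904 to 3097 in CD4 cells. By mean level the order was cycling (270.2 ± 13.1 CPM, SD over 4 libraries), follicular helper (252 ± 2.72), Foxp3-positive (243 ± 24.9), CD4 (219.7 ± 4.41), ungated (210.1 ± 8.53) and CD8 (193 ± 4.54). The ranges of neighbours in that order overlapped, except between ungated and CD8 cells. Of the stretches of 31 bases in Gpx4 transcripts, 38.9% also occur in other annotated genes that the count tables do not list, so reads of such copies could be counted as Gpx4.

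Acsl4 (ENSMUSG00000031278, chrX:142317993-142390535, minus strand) encodes the enzyme that loads long polyunsaturated fatty acids onto coenzyme A, and so supplies the lipids most open to peroxidation. It stood at 40.5, 53.6, 44.1 and 64.0 CPM in cycling cells of KO-DOX, KO-CTRL, WT-DOX and WT-CTRL, against 42.0, 45.5, 40.5 and 50.7 CPM in CD8 and 44.5, 53.3, 51.2 and 54.0 CPM in CD4 cells. The gates overlapped. Acsl4 was called in none of the 7 gate contrasts, and its difference in cycling cells was 0.10 log2 units with a 95% interval of -0.09 to 0.28. In follicular helper cells it spanned 51.7 to 89.7 CPM, and its difference from other CD4 cells, 0.25 with adjusted p = 0.089, came to 0.47 with adjusted p = 0.0015 when totals replaced TMM.

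Slc3a2 (ENSMUSG00000010095, chr19:8706882-8723369, minus strand) encodes the heavy chain that carries several amino acid transporters to the surface, with Slc7a11 for cystine and with Slc7a5 for large neutral amino acids. It stood at 221, 226, 243 and 230.4 CPM in follicular helper cells of KO-DOX, KO-CTRL, WT-DOX and WT-CTRL, against 136, 137, 139 and 141 CPM in other CD4 cells. The ranges were far apart in each library. Slc3a2 rose there by 0.51 ± 0.068 log2 units (adjusted p = 9.6e-09), and in 13 of 13 alternatives the adjusted p stayed under 0.05. In Ccl5-positive CD8 cells the levels were 179.6, 189.5, 205 and 139 CPM, against 155, 154, 153 and 149.8 CPM in Ccl5-negative cells, higher in 3 of 4 libraries and lower in WT-CTRL. The difference was 0.36 ± 0.065 (adjusted p = 2.3e-05), and 0.27 with adjusted p = 0.071 in thinned cells. In cycling cells Slc3a2 took a smaller share, 116, 125, 126 and 106 CPM, against 157, 157, 157 and 150.3 CPM in CD8 cells, and fell by 0.39 log2 units against resting cells (adjusted p = 6.3e-07); thinned to 1500 UMIs a cell the value was -0.29 with adjusted p = 0.096. Within CD8 cells the fall was 0.74 (adjusted p = 5.3e-06, and -0.44 with adjusted p = 0.19 in thinned cells). Within CD4 cells the value was -0.02 with a 95% interval of -0.27 to 0.24; the difference between these lineages was not tested. Slc3a2 in CD8 against CD4 cells was 0.15 higher by TMM (adjusted p = 0.0096) and -0.00027 by totals, so no direction is given.

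Slc7a11 (ENSMUSG00000027737, chr3:49892526-50443614, minus strand), the cystine subunit of that transporter, was close to undetected in T cells. It gave 2, 2, 3 and 1 UMIs over all T cells of KO-DOX, KO-CTRL, WT-DOX and WT-CTRL. No UMI fell in Foxp3-positive, follicular helper or Ccl5-positive cells of any library. A counted antisense gene, Gm37854, overlaps it, and whether the counting used strand was not given in the sources used here.

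Ferritin stores iron in a shell of heavy chains, which oxidise it, and light chains, which help the core form. Fth1 (ENSMUSG00000024661, chr19:9980598-9985098, plus strand), the heavy chain, stood at 1008, 966, 1046 and 961 CPM in cycling cells of KO-DOX, KO-CTRL, WT-DOX and WT-CTRL, against 1129, 1141, 1196 and 1064 CPM in CD8 cells and 1445, 1411, 1504 and 1355 CPM in CD4 cells. Cycling cells were lowest in every library. Fth1 fell by 0.34 ± 0.043 log2 units in cycling against resting cells (adjusted p = 1.6e-08).

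Ftl1 (ENSMUSG00000050708, chr7:45457944-45459884, minus strand), the light chain, moved the same way. Its levels were 1057, 1043, 1063 and 1003 CPM in cycling cells, against 1331, 1296, 1396 and 1258 CPM in CD8 cells and 1633, 1575, 1647 and 1558 CPM in CD4 cells, in the same order of libraries. The ranges of the 3 gates did not overlap. The fall in cycling cells was 0.47 ± 0.044 log2 units (adjusted p = 3.6e-11). Both ferritin falls kept an adjusted p under 0.05 in 13 of 13 alternatives, thinning included, and appeared within cycling CD8 cells (-0.30 for Fth1 and -0.52 for Ftl1) and cycling CD4 cells (-0.53 and -0.55). With myeloid and B cell barcodes kept, Fth1 in cycling CD8 cells was -0.10 with adjusted p = 0.064.

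Between resting lineages ferritin was called lower in CD8 cells, with a call for Ftl1 that most alternatives lost. Fth1 differed by -0.19 ± 0.046 log2 units (adjusted p = 0.0013) and Ftl1 by -0.13 ± 0.048 (adjusted p = 0.027), and in CPM both were lower in CD8 than in CD4 cells in 4 of 4 libraries. With 1 more UMI asked of each gate marker the values were -0.03 and -0.02, with adjusted p = 0.73 and 0.84, and leaving out WT-CTRL took Ftl1 to -0.10 with adjusted p = 0.14. The adjusted p was under 0.05 in 11 of 13 alternatives for Fth1 and in 5 of 13 for Ftl1, whose values ran from -0.28 to -0.02. Foxp3-positive cells held 1655, 1534, 1528 and 1446 CPM of Fth1 and 1606, 1590.2, 1565 and 1321 CPM of Ftl1. Ftl1 fell there by 0.21 ± 0.053 against CD4 cells (adjusted p = 0.0025), but was -0.08 with adjusted p = 0.29 by totals and -0.14 with adjusted p = 0.081 without WT-CTRL. In follicular helper cells the ferritin falls (-0.27 for Fth1, -0.15 for Ftl1) rest on TMM, since by totals Fth1 was at -0.04 and Ftl1 at 0.07. In Ccl5-positive CD8 cells Ftl1 was 0.12 higher by TMM (adjusted p = 0.046) and -0.0090 by totals, so no direction is given. Ftl1 shares 54.4% of its 31-base stretches with the counted pseudogene Ftl1-ps1, which held 5.13 to 5.54 CPM, so the split of reads between them is uncertain.

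Tfrc (ENSMUSG00000022797, chr16:32608920-32632794, plus strand), the receptor that takes up iron-laden transferrin, went the other way from ferritin in cycling cells. It stood at 45.0, 50.4, 49.2 and 47.4 CPM in cycling cells of KO-DOX, KO-CTRL, WT-DOX and WT-CTRL, against 32.5, 33.1, 36.1 and 35.4 CPM in CD8 cells and 27.2, 32.8, 32.5 and 35.5 CPM in CD4 cells. No resting value reached the lowest cycling value. Tfrc rose by 0.55 ± 0.089 log2 units (adjusted p = 2.0e-06), and among 13 alternatives this was lost with cells thinned to 1500 UMIs (0.32, adjusted p = 0.37). Within lineages it missed the threshold, at 0.27 (adjusted p = 0.15) in CD8 and 0.43 (adjusted p = 0.071) in CD4 cells, where the cycling sums came from 34 to 64 and 25 to 47 cells. With myeloid and B cell barcodes kept, both passed, at 0.54 and 0.84. That setting also drops the T cell marker limit, so the cycling barcodes it adds need not be T cells. Tfrc in CD8 against CD4 cells was 0.24 higher by TMM (adjusted p = 0.0057) and 0.09 by totals (adjusted p = 0.31). In follicular helper cells it fell by 0.38 (adjusted p = 0.027), a call kept in 7 of 13 alternatives. It was lost by totals (-0.16, adjusted p = 0.38), without KO-CTRL (-0.19, adjusted p = 0.39), without WT-CTRL (-0.37, adjusted p = 0.087), with thinned cells (-0.39, adjusted p = 0.26), with barcodes found in 1 library only (-0.32, adjusted p = 0.072) and with DESeq2 (-0.36, adjusted p = 0.067).

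Hmox1 (ENSMUSG00000005413, chr8:75093621-75100589, plus strand) encodes heme oxygenase 1, which breaks heme down and frees its iron. It was scarce, at 1.60, 1.33, 1.12 and 1.47 CPM over all T cells of KO-DOX, KO-CTRL, WT-DOX and WT-CTRL, and 54 of its 209 T cell UMIs (25.8%) lay in follicular helper cells. There it stood at 13.7, 11.9, 15.0 and 15.3 CPM, against 0.278, 0.517, 0.703 and 1.11 CPM in other CD4 cells. The counts were 14, 14, 11 and 15 UMIs in 240, 232, 149 and 184 follicular helper cells, against 1, 3, 3 and 6 UMIs in 1214, 1819, 1425 and 1688 other CD4 cells. All 4 libraries showed the same order without overlap, and 51 of 805 follicular helper cells carried a UMI against 13 of 6146 other CD4 cells.

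Over the 4 libraries the Hmox1 ratio of follicular helper to other CD4 cells in CPM was 20.2 (exact 95% interval 10.9 to 40.4). By library it was 49.2 in KO-DOX (7.48 to 2080), 23.0 in KO-CTRL (6.42 to 125), 21.4 in WT-DOX (5.64 to 119) and 13.8 in WT-CTRL (5.06 to 43.4). The edgeR value was 4.08 ± 0.41 log2 units with adjusted p = 3.2e-12. Hmox1 passed the filter of at least 10 UMIs in 4 sums only through the follicular helper sums, so it had to differ to be tested at all; with every gene of at least 1 UMI tested it stood at 4.02 with adjusted p = 4.6e-19. Myeloid markers summed to 45.9 to 61.5 CPM in follicular helper cells against 44.7 to 57.5 CPM in other CD4 cells. Lyz2, Itgax, Csf1r and Siglech were at 0 in the follicular helper cells of all 4 libraries, while Cst3 and Cd68 were detected in each. In other CD4 cells Itgax, Csf1r and Siglech were also at 0 in all 4 libraries, and Lyz2 in all but KO-DOX. T cells were kept only with under 2 myeloid marker UMIs, so these levels follow in part from the limit. B cell markers summed to 0 to 5.10 CPM against 1.21 to 2.77 CPM. Regulatory T cell markers moved with the gate, at 744 to 935 CPM in follicular helper against 184 to 274 CPM in other CD4 cells, with Foxp3 at 0 in both gates, since cells with Foxp3 were gated apart; their part in the Hmox1 difference was not tested. The median follicular helper cell held 3881 to 4670 UMIs against 2770.5 to 3000 in other CD4 cells.

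Other gates ranked lower for Hmox1. Foxp3-positive cells held 6.35, 6.07, 4.04 and 6.57 CPM in KO-DOX, KO-CTRL, WT-DOX and WT-CTRL, and cycling cells 2.97, 4.02, 4.41 and 6.86 CPM, ranges that overlap. CD8 cells held 0.624, 0.546, 0.439 and 0.389 CPM, against 3.27, 2.69, 2.89 and 3.26 CPM in CD4 cells. The CD4 gate includes the follicular helper cells, which held 54 of its 73 Hmox1 UMIs. Other CD4 cells held 0.278 to 1.11 CPM, a range that overlaps that of CD8 cells. A contrast of CD8 with other CD4 cells was not tested. Hmox1 was 2.41 ± 0.30 log2 units lower in CD8 than in CD4 cells, but the CD4 sums alone carried it past the filter, so it had to differ to be tested. With every gene of at least 1 UMI tested, it stood at -2.33 with adjusted p = 9.8e-12. It rose by 1.86 ± 0.33 in cycling against resting cells (adjusted p = 7.2e-06), with 2.19 (adjusted p = 0.0091) in cycling against other CD8 cells and 0.74 (adjusted p = 0.27) in cycling against other CD4 cells. The cycling and CD4 ranges overlapped, and in KO-DOX the cycling level lay below the CD4 level. Only 1 of the 4 cycling sums held at least 10 UMIs. The CD8 value rests on 7 UMIs in cycling CD8 cells, with 2, 0, 2 and 3 in KO-DOX, KO-CTRL, WT-DOX and WT-CTRL, and on 3 of 4 libraries, KO-CTRL being lower. The value for Foxp3-positive against CD4 cells was 0.81 with adjusted p = 0.22.

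Nfe2l2 (ENSMUSG00000015839, chr2:75675513-75704641, minus strand) encodes NRF2, the transcription factor for antioxidant genes. Foxp3-positive cells held 23.3, 33.4, 14.1 and 47.6 CPM in KO-DOX, KO-CTRL, WT-DOX and WT-CTRL, against 56.6, 53.7, 47.7 and 66.7 CPM in CD4 cells. These were 11, 22, 7 and 29 UMIs in the Foxp3-positive gate, with a mean of 29.6 ± 14.4 CPM (SD over 4 libraries). Each library was lower in Foxp3-positive than in CD4 cells, and the ranges did not overlap, though 47.6 CPM in the Foxp3-positive cells of WT-CTRL lay next to 47.7 CPM in the CD4 cells of WT-DOX. Nfe2l2 fell by 1.01 ± 0.18 log2 units (adjusted p = 6.5e-05), with values from -1.21 to -0.75 and an adjusted p under 0.05 in 13 of 13 alternatives. Cycling cells were low too, at 35.1, 39.7, 38.2 and 30.3 CPM, against 50.6, 52.6, 47.7 and 60.03 CPM in CD8 cells, without overlap. The fall against resting cells was 0.59 ± 0.10 (adjusted p = 7.4e-06), with -0.85 (adjusted p = 0.00049) in CD4 and -0.39 (adjusted p = 0.024) in CD8 cells; the CD8 value was -0.24 with adjusted p = 0.20 without WT-CTRL, -0.36 with adjusted p = 0.076 without KO-CTRL and -0.37 with adjusted p = 0.082 with stricter gates. In follicular helper cells Nfe2l2 fell by 0.40 ± 0.11 (adjusted p = 0.0031), which rests on KO-CTRL (36.6 CPM): without that library it was -0.23 with adjusted p = 0.15, and by totals it was -0.19 with adjusted p = 0.19.

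Txn1 (ENSMUSG00000028367, chr4:57943373-57956411, minus strand) encodes cytosolic thioredoxin, which reduces peroxiredoxins and ribonucleotide reductase. It was far higher in cycling cells of every library. Cycling cells held 456, 419.9, 482 and 418 CPM in KO-DOX, KO-CTRL, WT-DOX and WT-CTRL, against 116, 115, 113 and 109.8 CPM in CD8 cells and 124, 129, 123 and 112 CPM in CD4 cells. The lowest cycling value was above 3 times the highest resting one. Txn1 rose 3.79-fold, by 1.92 ± 0.049 log2 units (adjusted p = 2.0e-26), by 2.02 in cycling CD8 and 1.78 in cycling CD4 cells, and by 1.65 to 2.13 across the alternatives, the lowest being with thinned cells.

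Txn1 also rose in follicular helper cells, with 172, 199.9, 204 and 152 CPM in KO-DOX, KO-CTRL, WT-DOX and WT-CTRL, against 107, 113, 106 and 105 CPM in other CD4 cells. The difference was 0.53 ± 0.071 log2 units (adjusted p = 1.3e-08). In Ccl5-positive CD8 cells it stood at 146, 152, 144 and 118 CPM, against 113, 110.2, 111 and 108 CPM in Ccl5-negative cells, a rise of 0.47 ± 0.068 (adjusted p = 3.1e-07). Neither pair of gates overlapped, and with thinned cells the values were 0.29 (adjusted p = 0.056) and 0.32 (adjusted p = 0.054). Foxp3-positive cells spread from 121 to 182 CPM, and their difference from CD4 cells, 0.21 with adjusted p = 0.13, passed by totals (0.35, adjusted p = 0.0080) and without WT-DOX (0.31, adjusted p = 0.026).

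CPM gives the share of a cell's RNA, and the amount per cell tells another part. Cycling cells held more UMIs in all, so 9 of the 10 genes had more UMIs per cell in cycling than in CD8 or CD4 cells, also where their share fell. Ftl1 gave 1227 to 1523 UMIs per 100 cycling cells, against 481 to 530.0 per 100 CD8 cells and 521 to 543 per 100 CD4 cells. Fth1 gave 1176 to 1499, against 412 to 454 and 462 to 486. Txn1 gave 511 to 691 UMIs per 100 cycling cells, against 42.5 to 44.0 in CD8 and 38.8 to 44.5 in CD4 cells. A lower share of ferritin mRNA in cycling cells therefore stood beside a higher count per cell.

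**Figure D3:**
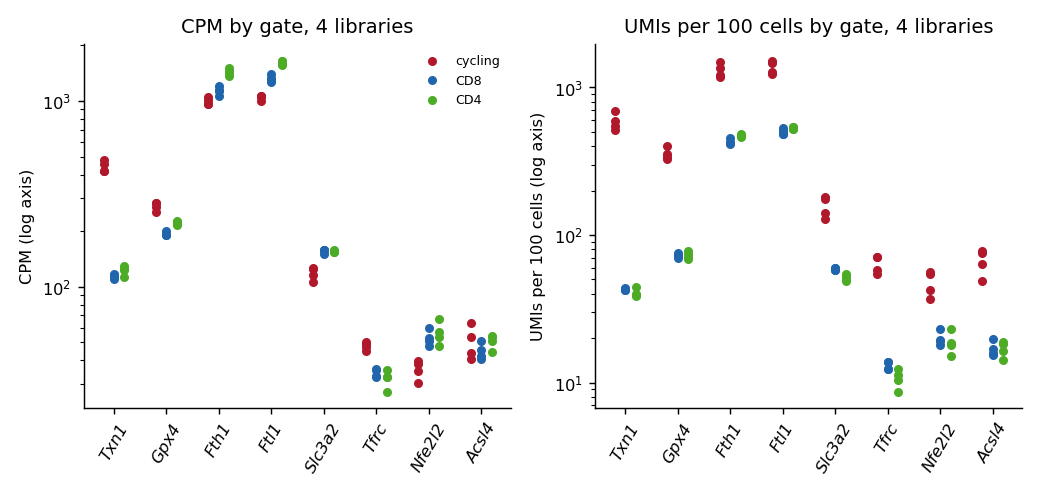
CPM (share of UMIs) and UMIs per 100 cells of each gene in cycling, CD8 and CD4 cells, on log axes; points are the 4 libraries. Fth1 and Ftl1 lie lower in cycling cells by CPM and higher per cell (Fth1 1176 to 1499 UMIs per 100 cycling cells), whereas Txn1 lies higher on both.

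Across the libraries the set was level. The 4 libraries set doxorubicin beside the control treatment within each genotype, and the dendritic cell deletion beside the control genotype under each treatment, as differences between single libraries. With 1 library a group no test exists, so a gene was called where the exact Poisson 95% intervals of its 2 levels lay apart and the log2 fold of CPM plus 1 was at least 0.32 in size, among genes with a mean of at least 5 CPM. By that rule 8 of the 10 genes could be called, Hmox1 and Slc7a11 being under 5 CPM. In WT-DOX against WT-CTRL 1 of 8 was called, Nfe2l2, lower in WT-DOX, where 3.5% of 8939 genes were called, 2.85% of the 8939 in that direction. In KO-DOX against KO-CTRL 0 of 8 were called (1.78% of all genes), in KO-CTRL against WT-CTRL 0 of 8 (2.19%), and in KO-DOX against WT-DOX 0 of 8 (4.2%). The median log2 fold of the 8 genes was 0.03, -0.00424, -0.00684 and -0.00922 in these 4 comparisons, beside -0.01, 0.00823, 0.00130 and 0.02 over all genes. These comparisons share libraries and are not independent.

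**Figure D4:**
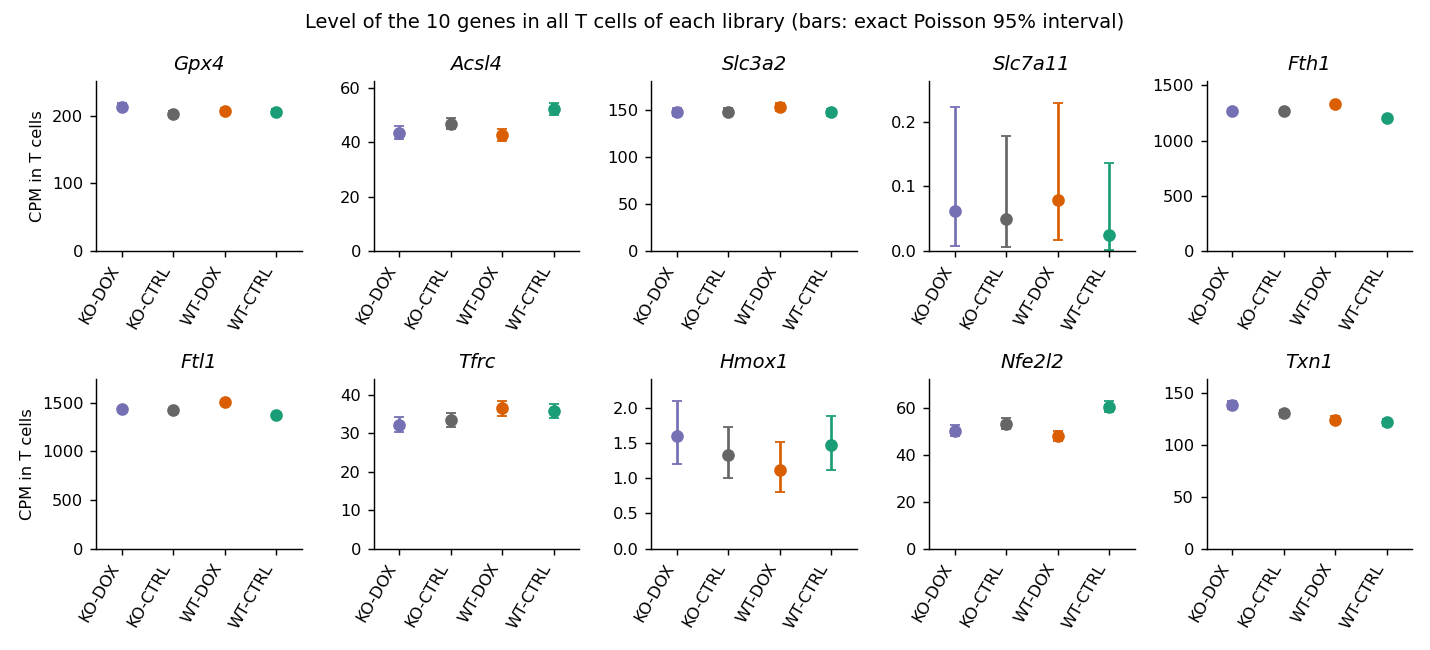
CPM over all T cells of each library (x axis: KO-DOX, KO-CTRL, WT-DOX, WT-CTRL; y axis from 0, own scale per panel), with exact Poisson 95% intervals that cover counting error only. Most panels are flat, and Nfe2l2 is lowest in WT-DOX (48.2 CPM) and highest in WT-CTRL (60.8 CPM).

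Levels over all T cells lay close together. Gpx4 stood at 213, 203, 207 and 205 CPM in KO-DOX, KO-CTRL, WT-DOX and WT-CTRL, and Slc3a2 at 149, 149, 154 and 148 CPM. Fth1 stood at 1264, 1271, 1328 and 1207 CPM, and Ftl1 at 1438, 1423, 1509 and 1378 CPM, both highest in WT-DOX and lowest in WT-CTRL. In WT-DOX against WT-CTRL the ferritin intervals were apart, but at 0.14 and 0.13 log2 units both were under the size rule. Tfrc stood at 32.2, 33.3, 36.4 and 35.8 CPM and was 0.17 lower in KO-DOX than in WT-DOX with intervals apart. Txn1 stood at 138, 130.4, 124 and 122 CPM and was 0.15 higher in KO-DOX than in WT-DOX with intervals apart. Acsl4 stood at 43.6, 47.0, 42.7 and 52.2 CPM, and its -0.28 in WT-DOX against WT-CTRL also missed the size rule with intervals apart.

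Nfe2l2 was the gene that moved between libraries. It stood at 50.5, 53.5, 48.2 and 60.8 CPM in T cells of KO-DOX, KO-CTRL, WT-DOX and WT-CTRL. The WT-DOX level (48.2, 95% interval 46.0 to 50.4) was 0.33 log2 units under the WT-CTRL level (60.8, 58.4 to 63.2), just past the size rule. The log2 fold was -0.31 with median-of-ratios scaling and -0.32 with B cell and myeloid barcodes kept, both short of the size rule before rounding. In KO-DOX against KO-CTRL the difference was -0.08 with overlapping intervals. The WT-CTRL library was the highest of the 4 in CD8, CD4, Foxp3-positive and ungated cells, and in cycling cells it was the lowest (30.3 CPM).

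By gate, the WT-DOX level of Nfe2l2 was 47.7 CPM in CD4 cells against 66.7 CPM in WT-CTRL (log2 fold -0.48, called, where 2.67% of all genes were called) and 47.7 CPM in CD8 cells against 60.03 CPM in WT-CTRL (-0.33, called; 3.53%). In Foxp3-positive cells it was 14.1 CPM, or 7 UMIs, against 47.6 CPM, or 29 UMIs (-1.68, called; 1.3%). In ungated cells it was 51.5 CPM against 63.2 CPM, which missed the size rule (-0.29). The sub-gates that make up most of these cells were called as well, other CD4 cells with 48.5 against 68.7 CPM (-0.49; 2.7%) and Ccl5-negative CD8 cells with 47.6 against 59.7 CPM (-0.32; 3.48%). In KO-DOX against KO-CTRL the same gene differed by 0.07 in CD4, -0.05 in CD8 and -0.50 in Foxp3-positive cells, with overlapping intervals.

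Slc3a2 and Acsl4 were also called within gates, against WT-CTRL. In follicular helper cells 2 genes were lower in KO-CTRL than in WT-CTRL (1.79% of all genes called), Nfe2l2 with 36.6 against 66.3 CPM (-0.84) and Acsl4 with 51.9 against 89.7 CPM (-0.78). In Ccl5-positive CD8 cells Slc3a2 stood at 205 CPM in WT-DOX against 139 CPM in WT-CTRL (0.56; 1.53% of all genes called) and at 189.5 CPM in KO-CTRL against the same 139 CPM (0.44; 1.6%). These 4 values share the WT-CTRL library, so it cannot be told whether that library or the others moved. Gates of 149 to 264 cells a library stand behind them.

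**Figure D5:**
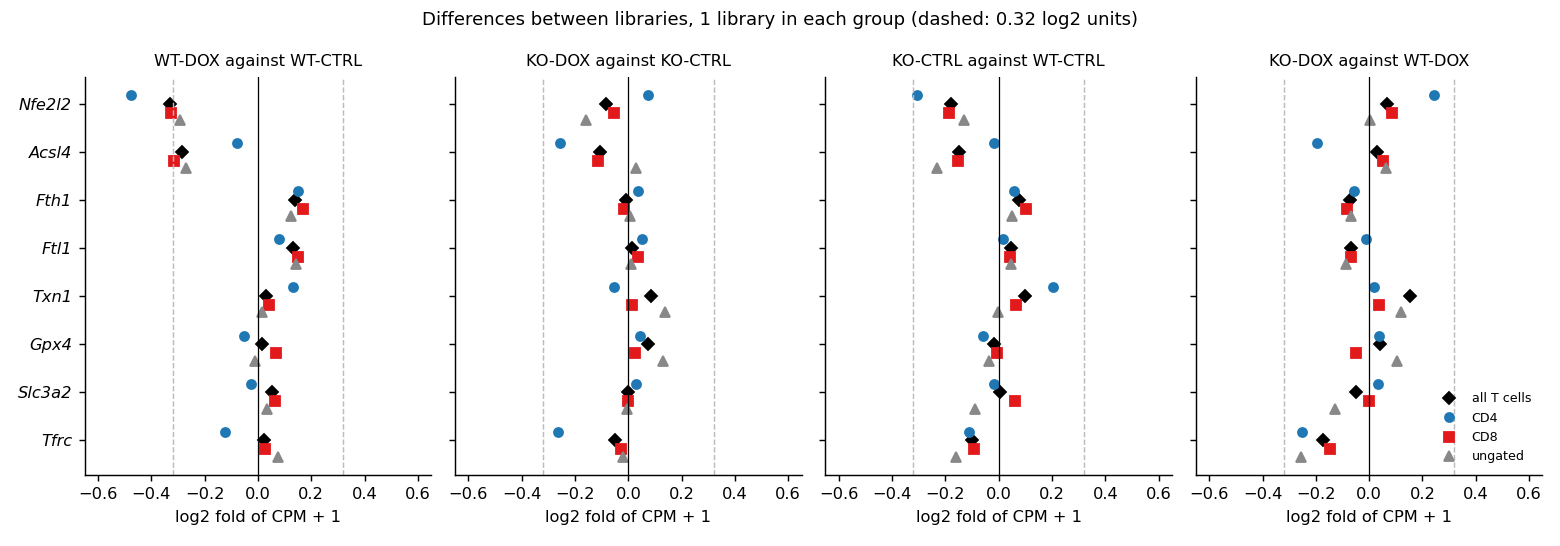
Log2 fold of CPM plus 1 for 8 genes in the 4 library comparisons, over all T cells and within CD4, CD8 and ungated cells; dashed lines mark 0.32 in either direction. Nfe2l2 in WT-DOX against WT-CTRL passes the line in T, CD4 and CD8 cells (-0.33, -0.48 and -0.33), and the other genes stay inside the lines in these cells.

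The difference of the doxorubicin responses, KO minus WT, was called for 0 of 8 genes (5.53% of all genes called). Its 95% counting interval left out 0 for 4 of them, Fth1 at -0.15 (-0.17 to -0.12), Ftl1 at -0.12 (-0.14 to -0.09), Nfe2l2 at 0.25 (0.12 to 0.37) and Acsl4 at 0.18 (0.05 to 0.31). For Gpx4, Slc3a2, Tfrc and Txn1 the interval held 0. Spread between mice could not be set against any of these.

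Around the 10 genes, a wider list of 82 genes of iron handling, glutathione, thioredoxin and lipid metabolism was read in 10 roles. In cycling against resting cells 31 of 68 tested rose and 18 fell, where 33.4% of all genes were called higher and 31.5% lower, with a median of 0.21 log2 units beside -0.03 over all genes; the members' own median was 0.10. The counts by role that follow stand beside the same shares. Of 10 peroxidases and superoxide dismutases 7 rose and 2 fell, with Prdx4, the peroxiredoxin of the endoplasmic reticulum, at 3.11 (adjusted p = 8.1e-24), cytosolic Prdx1 at 1.44, and Prdx6, which acts on phospholipid peroxides, at -0.83. Of 5 thioredoxin genes 4 rose, among them glutaredoxin Glrx (2.17) and thioredoxin reductase Txnrd1 (0.66), and Txnip, which binds and inhibits thioredoxin, fell (-1.96). Of 7 genes of NRF2 control 5 fell and 1 rose. The repressors Bach2 (-1.77) and Bach1 (-1.31), which compete with NRF2 on DNA, fell, and Keap1, which marks NRF2 for breakdown, rose (0.34).

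Iron and heme genes of the wider list split in cycling cells. In iron storage, turnover and sensing 4 of 9 rose and 1 fell, with the mitochondrial iron-sulphur protein Cisd1 at 1.72 and Fbxl5, which degrades an iron regulatory protein, at -0.63. In heme metabolism 4 of 6 rose and 1 fell, with Alad at 1.71 and biliverdin reductase Blvra at 1.14, and ferrochelatase Fech at -0.49. In iron uptake and release 0 of 6 rose and 2 fell, Slc25a28 (-0.50) and Slc11a2 (-0.36). In glutathione synthesis Gclm (1.12) and Gss (0.70) rose and Gclc fell (-0.59), 3 and 1 of 5 in all. In the role of lipid substrates and oxidation 4 of 10 rose, led by the desaturase Scd2 (1.86) and Vdac3 (1.22), and 2 fell, Sat1 (-0.64) and Acsl1 (-0.41). The light chain Slc7a5, partner of Slc3a2, rose (0.68) while Slc38a2 fell (-0.78). Among other lipid radical defences Chmp5 and Dhcr7 rose (both 0.67) and Gch1 (-1.07) and Spr (-0.24) fell, 3 and 2 of 7 in all.

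In follicular helper cells 21 of 67 genes of the wider list rose and 15 fell against other CD4 cells, where 22.2% of all genes were called higher and 22.7% lower, with a median of -0.02 beside -0.03 over all genes. Bach2 fell by 2.63 log2 units (adjusted p = 3.4e-31) and Bach1 by 0.76, and the small Maf gene Mafg, their shared partner on DNA, rose by 1.72. BACH1 is a known repressor of Hmox1, and a link between these values and the Hmox1 difference was not tested. Txnip (-1.98) and Prdx6 (-1.17) fell, and Glrx (1.28), Prdx2 (0.85) and Txnrd2 (0.81) rose. Alad (1.47), Blvra (0.71), Cisd1 (0.98), Aco1, an iron regulatory protein (0.82), Slc11a2 (0.92), Scd2 (1.67) and Pla2g6 (1.47) rose. Pcbp2 (-0.40), Slc38a2 (-0.78), Slc7a5 (-0.66), Gclc (-0.57) and Coq2 (-0.58) fell.

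In Foxp3-positive against CD4 cells 9 of 68 rose and 8 fell, with a median of -0.07 beside -0.04 over all genes; this is near the share of all genes called (11.3% higher and 11.7% lower). Glrx rose by 2.30 (adjusted p = 3.2e-15), Prdx4 by 0.76 and Alad by 0.74, and Slc39a14 (-1.53), Acsl3 (-1.08), Gch1 (-0.83), Bach2 (-0.81) and Prdx6 (-0.81) fell. In CD8 against CD4 cells 12 of 68 rose and 21 fell (19% and 21.8% of all genes), with a median of -0.06 beside -0.00493. The metal transporter Slc11a2 (1.003), the ferrireductase Steap3 (1.73), Gch1 (0.47) and Txnrd1 (0.33) were among those that rose, and Prdx4 (-1.55), Glrx (-1.503), Scd2 (-0.86), Acsl3 (-0.83) and Mafg (-0.73) among those that fell. Of 6 iron uptake and release genes 4 rose and 0 fell there. In Ccl5-positive against Ccl5-negative CD8 cells 7 of 67 rose, with Alad (0.87), Txnrd1 (0.43) and Prdx1 (0.31), and 6 fell, with Acsl3 (-0.87), Bach2 (-0.53) and Ncoa4 (-0.52), near the shares of all genes (11.6% and 8.23%). The genes named in these 3 contrasts and in follicular helper cells all lie further from 0 than the shifts given for totals.

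Between libraries the wider list was as level as the 10 genes. Of 65 genes with a mean of at least 5 CPM, 0 were called in 3 of the 4 comparisons. In KO-DOX against WT-DOX 1 was called, Glrx, with 36.5 against 28.5 CPM (0.34). The largest fold short of the rule was Slc38a2 in KO-DOX against KO-CTRL, with 228 against 284 CPM (-0.32).

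Over the 16 sums of 4 libraries and 4 gates, genes most like each member in log2 CPM, up to 3 a member, were found among 6123 genes with a mean of at least 20 CPM; sums of 1 library share its cells' source, and cycling sums share their depth, so these r values are descriptions. Txn1 ran closely with Nutf2 and Mcm3 (Pearson r 0.99 each), and Gpx4 with Slc25a11, Mlf2 and Creld2 (0.97 each). Fth1 ran with Sat1 (0.97), Rgs2 (0.96) and Ifrd1 (0.96), and Ftl1 with Gsk3b, Rbm18 and Arl5b (0.97 each). Tfrc was nearest to Psmd14 (0.91), Myg1 (0.90) and Prpf19 (0.89), Nfe2l2 to Icam2 (0.91), Ptcd3 (0.91) and Zfp639 (0.90), and Slc3a2 to Dlgap4 (0.95), Stx16 (0.93) and Tor1aip2 (0.93). Acsl4 had the loosest neighbours, Ndufs1 (0.83), Atad1 (0.81) and Usp45 (0.81). Hmox1, at few counts, ran with Mif4gd, Il1r2 and Stx11 (0.97 each).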

How the data were processed

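The deposited values are counts of UMIs per gene and barcode in 4 libraries, as the authors deposited them; the submitters' processing notes name mm10, and aligner, cell caller and strand setting were not given in the sources used here. Kept barcodes, 48578 of 48597, had 300 genes or more and no more than 10% mitochondrial UMIs. T cells had at least 2 UMIs of T cell markers and under 2 of B cell and of myeloid markers. No doublet caller was run; 2.14% to 2.89% of T cells, and 9.79% to 12.6% of cycling cells, held both Cd4 and Cd8a or Cd8b1 UMIs, and outside the cycling gate such cells entered no gate. UMIs were summed per library and gate. Intervals are exact Poisson 95% intervals and cover counting error only.

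Gate tests used edgeR 4.0.16 (limma 3.58.1, R 4.3.3) on genes with at least 10 UMIs in at least 4 of 16 sums; DESeq2 1.42.0 was an alternative. Other steps used Python 3.11.15, numpy 2.4.6, scipy 1.17.1, pandas 2.3.3 and matplotlib 3.10.9. Tested on simulated counts for cycling against resting cells (11623 genes), 99% and 100% of genes altered by 1 and 2 log2 units were called, and 0.0963% of unaltered ones. The simulated counts had a fixed spread, 100 altered genes at each size and no difference between libraries. In the real contrast 64.9% of genes were called, so these rates need not hold there. Near copies and positions came from GENCODE M21. The 10 genes, the wider list and the gates were chosen with earlier results of these data known. All 10 genes are named, and of the wider list up to 2 genes per role and direction among those called; some genes that met these rules are not reported here. The alternatives with B cell and myeloid barcodes kept in the gate tests, with barcodes found in 1 library only, and with totals in place of TMM were chosen after seeing the data. Wherever B cell and myeloid barcodes were kept, the limit on T cell markers was dropped as well.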

Additional observations from a re-analysis of the deposited data

Results flagged for a closer look

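Scarce members gave counts in barcodes outside the T cell comparisons. Among the barcodes with at least 2 UMIs of myeloid markers Hmox1 gave 11 UMIs in KO-DOX, 24 in KO-CTRL, 13 in WT-DOX and 11 in WT-CTRL, together 59 of its 278 UMIs in kept barcodes (21.2%). Slc7a11 gave 5, 7, 4 and 12 UMIs there in the same order of libraries, together 28 of 38 (73.7%), in 14 of 1629 such barcodes. These barcodes are deep and nearly all hold T cell markers too, and what cells they are was not tested.

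The doxorubicin responses of Fth1 were -0.01 log2 units in KO T cells (1264 CPM in KO-DOX, 1271 in KO-CTRL) and 0.14 in WT T cells (1328 CPM in WT-DOX, 1207 in WT-CTRL). They are listed because the signs differ, but the KO value lay at about 0, with overlapping counting intervals and values from -0.02 to 0.0062 over the alternatives, so its sign is not fixed. The difference of -0.15, KO minus WT, was not tested, since each group is 1 library.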

How the results depend on the processing

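No paired analysis was possible between the groups because each group is 1 library, while the gate tests compared gates within libraries. Counts of members called moved by more than 1.5 times in 13 cases and stayed within it in 123. WT-DOX against WT-CTRL gave 0 in place of 1 with median-of-ratios scaling and with B cell and myeloid barcodes kept. CD8 against CD4 gave 3 in place of 5 with all genes of at least 1 UMI, stricter gate limits or no library block, and 2 with thinned cells. Foxp3-positive against CD4 gave 1 in place of 2 with stricter limits. Thinning to 1500 UMIs gave 4 in place of 8 for cycling cells, 1 in place of 3 for Ccl5-positive, 3 in place of 7 for follicular helper and 3 in place of 7 for cycling CD8 cells; it also leaves fewer UMIs. Leaving out each library in turn gave 3 to 5 for CD8 against CD4 and 1 to 3 for Foxp3-positive cells, in both cases lowest without WT-CTRL, 7 to 8 for cycling, 2 to 3 for Ccl5-positive, 5 to 6 for follicular helper, 5 to 6 for cycling CD8 and 5 to 6 for cycling CD4 cells; Hmox1 dropped under the filter in some of these. By totals, Slc3a2 in CD8 against CD4 turned to -0.00027, Ftl1 in Ccl5-positive cells to -0.0090 and Ftl1 in follicular helper cells to 0.0683. With thinned cells Gpx4 in cycling CD8 cells turned to -0.10. The cause of the other changes was not tested. Of the values for single genes, 1092 were classed as unchanged, 77 moved, 49 lost and 17 gained a call, and 4 reversed. For gate tests, unchanged means the same direction and side of the threshold. For values between libraries it means within the counting interval around the reported value. There a call, or the sign of an uncalled value, could still change. With 1 library a group, nothing here measures spread between mice, and genes of few UMIs (Slc7a11, Hmox1) or small gates give wide intervals.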
